A study of Mus musculus with 6 samples.

Results

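The 40 genes described here encode the proteins that make, modify, burn, bind and take up fatty acids. They were chosen by name from knowledge of the pathway, with earlier results of these data known. Their rows were read from the deposited gene table. A total of 39 of the 40 had a row among the 28154 genes of the table, and all 39 passed the filter on low counts. The gene for the receptor Ppara was not analysed here. By role, 7 of the listed genes belong to synthesis, 9 to desaturation and elongation, 12 to oxidation, and 12 to binding or uptake, which includes the acyl-CoA synthetases, a lipid droplet coat protein and the lipid-sensing PPAR receptors. The samples are cultured 4T1 cells, an established mouse mammary carcinoma line that forms tumours and metastases in BALB/c mice. RNA was sequenced in 3 libraries of control cells and in 3 libraries of cells treated with corticosterone, the main glucocorticoid hormone of rodents. Not given in the sources used here were the dose, the time and the vehicle. No label says whether the 3 libraries of a group came from separate cultures, so the p-values measure the spread between these libraries, which may be technical.

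Cells build fatty acids in the cytosol by exporting citrate from mitochondria, splitting it to acetyl-CoA, carboxylating this to malonyl-CoA and adding it stepwise to a growing chain. Elongases and desaturases of the endoplasmic reticulum then lengthen the chain and introduce cis bonds, while long chains to be burned are linked to carnitine, carried into mitochondria and shortened by beta-oxidation. Fatty acid binding proteins and acyl-CoA synthetases trap fatty acids inside the cell, and tumour cells are known for making much of their own fatty acid even when it is supplied from outside. In liver and fat tissue, glucocorticoids are known to act on both fat storage and fat breakdown.

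The libraries held 62.2 to 66.2 M counts, and 22244 to 22683 genes had at least 1 count. Corticosterone replicate 2 stood apart from the other libraries of its group: the chi-square of its counts per degree of freedom was 41.7 and 63.3 against replicates 1 and 3, which differed from each other by 9.86, while the 3 pairs of control libraries gave 8.5 to 14.5. Results that changed most without this library are therefore given with and without it. The labelled cell type was checked by 8 epithelial markers, all of which had counts in every library. Their summed level was 4632 to 4989 CPM (counts scaled to library size and composition) in control cells and 4287 to 5154 CPM with corticosterone. The 8 fibroblast markers summed to 141 to 159 CPM in control cells and 150 to 155 CPM with corticosterone. For 6 liver and muscle markers the sums were 0.444 to 0.740 CPM and 0.350 to 0.521 CPM. The labels name no batch.

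Most fatty acid genes differed little between the groups. The genes Fads3, a desaturase, and Fabp4, a fatty acid binding protein, rose with corticosterone, Fads2, the desaturase that starts polyunsaturated fatty acid synthesis, fell, and 36 of 39 did not pass the threshold, an adjusted p under 0.05 in edgeR's quasi-likelihood test with Benjamini-Hochberg adjustment over all 17283 tested genes. The 2 members that rose stand beside 1.35% of all tested genes that rose, and the 1 that fell beside 1.46% of all tested genes that fell. The median log2 fold change (corticosterone over control) of the 39 genes was -0.07, with 30 of 39 below 0, while the median over all tested genes was 9.6e-05, with 8640 of 17283 below 0. All 3 corticosterone libraries lay above all 3 control libraries for 3 members (10.6% of all tested genes) and below them for 10 members (11.6% of all tested genes). At an unadjusted p under 0.05 there were 3 higher members (8.23% of all tested genes) and 11 lower ones (8.80% of all tested genes). DESeq2 called 2 members higher (4.21% of the 14931 genes to which it gave an adjusted p) and 4 lower (4.45% of those genes). The 95% interval of the log2 fold change lay within 0.5 of 0 for 32 of the 39 genes, and for 9447 of all 17283 tested genes. A bound of 0.5 still leaves room for a change of the size seen for Fads3 (0.44). In bulk libraries, a change in the share of cells that express a gene and a change in the RNA per cell cannot be told apart.

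**Figure D1:**
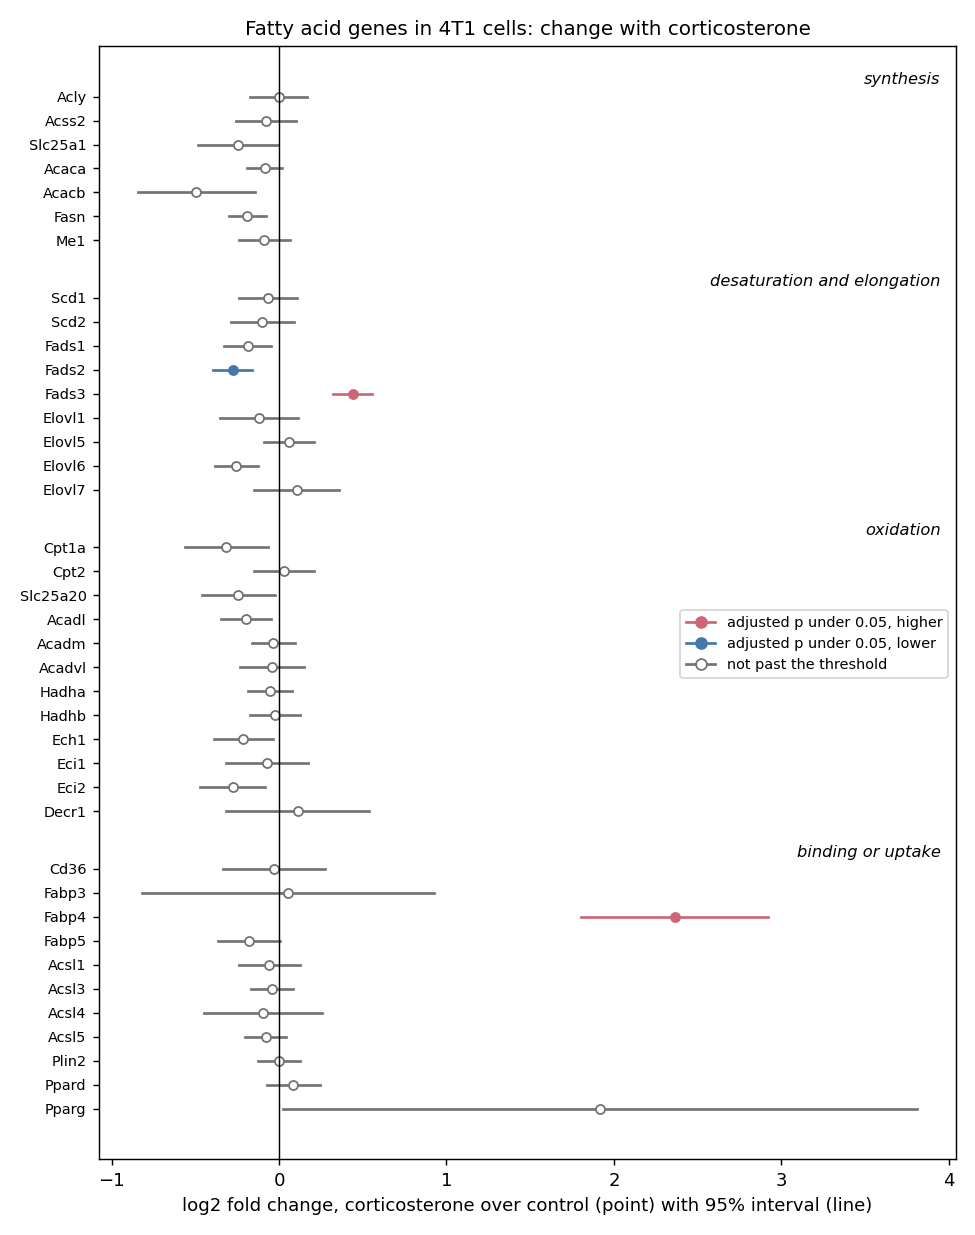
The log2 fold change of each of the 39 genes (point) with its 95% interval (line), corticosterone over control, 3 libraries per group, arranged by role. The intervals of Fads3 and Fabp4 lie above 0 and that of Fads2 below 0 with an adjusted p under 0.05, and the 36 open points did not pass the threshold.

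By level, desaturases and genes of synthesis led the list. Levels of different genes are compared as FPKM, the deposited values scaled by gene length and library size. The highest mean in control cells was that of Scd2, a stearoyl-CoA desaturase that makes monounsaturated fatty acids, at 260 ± 14.6 FPKM (SD, n = 3). The next places were taken by Fads2 (89.7 ± 0.740 FPKM), the citrate-splitting enzyme Acly (78.9 ± 3.44 FPKM) and the fatty acid synthase Fasn (68.8 ± 1.37 FPKM), followed by the acyl-CoA synthetase Acsl5 (66.0 ± 0.449 FPKM). The gap between Scd2 and Fads2 and that between Fads2 and Acly were larger than the spread of the libraries, whereas the mean of Acsl5 lay within 3 FPKM of that of Fasn. At the other end stood Fabp3, Decr1 and Acacb, all under 1 FPKM in both group means, then Fabp4 at 0.108 ± 0.0302 FPKM and Pparg at 0.0382 ± 0.0350 FPKM in control cells. The deposited FPKM follow the length of all exons of a gene together, so a gene with long alternative exons appears lower than its main transcript would. With the length of the longest transcript in its place, Scd2 stayed at rank 1 and Pparg at rank 39, while the droplet protein Plin2 moved from rank 8 to rank 4 and the oxidation enzyme Hadha from rank 22 to rank 11. With that length Acly took rank 2 and Fads2 rank 3, so the order of these genes rests on the length used.

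**Figure D2:**
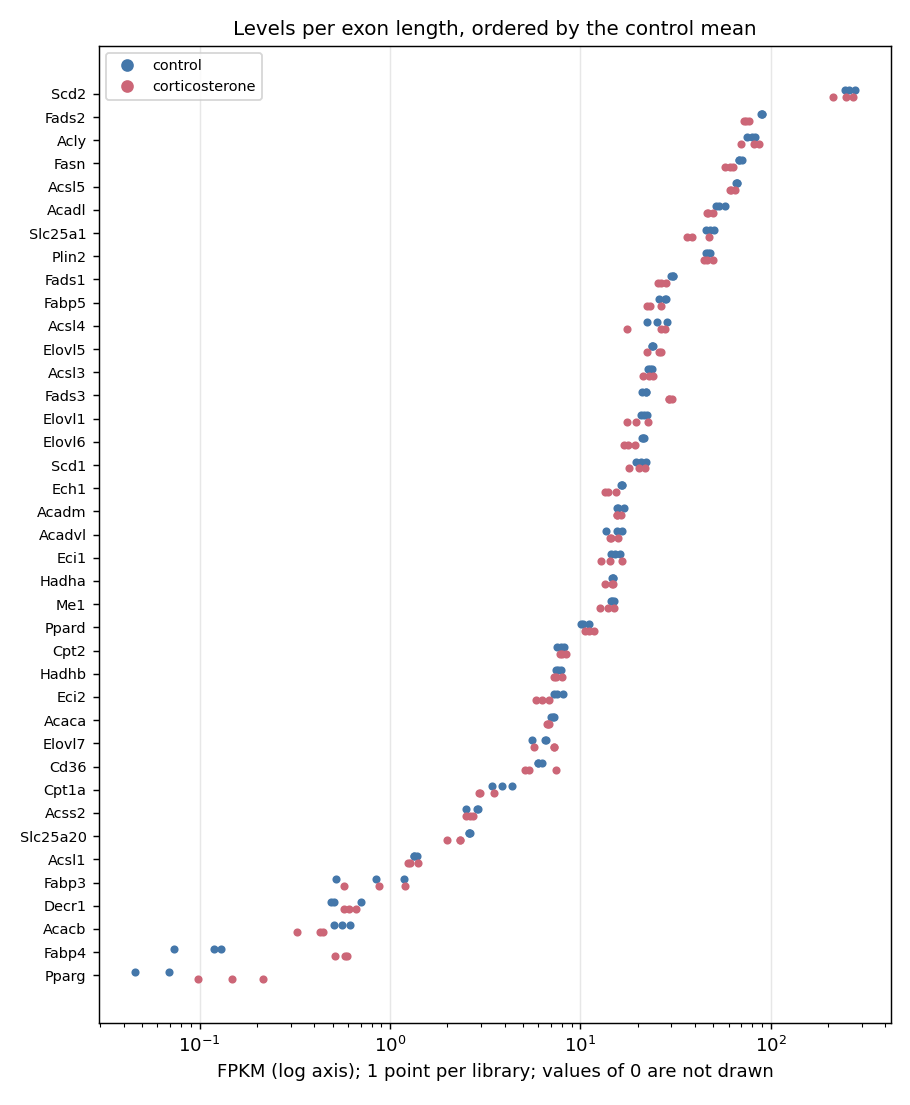
Level in each library as FPKM on a log axis, control and corticosterone libraries as separate points, genes ordered by the control mean. Levels run from 260 FPKM for Scd2 to under 0.1 FPKM for Pparg in control cells, and Fabp4 and Fads3 are the genes whose corticosterone points lie clear to the right of the control points with an adjusted p under 0.05. The 1 value of 0, Pparg in control replicate 2, is not drawn.

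The fatty acid desaturases Fads1, Fads2 and Fads3 lie side by side on chromosome 19, and the members on either side of the same intergenic gap moved in opposite directions. In the coordinates of the deposited table, which match mouse build GRCm38, Fads3 spans 10041569 to 10060110 on the plus strand, Fads2 spans 10062765 to 10101746 on the minus strand and Fads1 spans 10182888 to 10196877 on the plus strand. No exon of these 3 genes overlapped an exon of another gene, and none had a near-identical copy elsewhere (at least 95% over at least 200 bases). Their coding sequences, computed from GENCODE M21 transcripts, were 70.5% identical between Fads2 and Fads3, 66.9% between Fads1 and Fads2 and 63.9% between Fads1 and Fads3.

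Fads3, known to desaturate the sphingoid base of ceramides, was at 90.1, 94.7 and 94.8 CPM in control replicates 1 to 3 and at 128, 127 and 124 CPM in corticosterone replicates 1 to 3. All corticosterone libraries were above all control libraries, and the spread within each group was small beside the gap. The log2 fold change was 0.44 (SE 0.0509, 95% interval 0.32 to 0.56), a rise of 35.6%, with an edgeR adjusted p of 0.0046. Over all alternatives tried, the adjusted p ran from 1.6e-12 (DESeq2) to 0.0497 (edgeR without control replicate 2), and the call was kept in each.

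Fads2, the delta-6 desaturase at the start of polyunsaturated fatty acid synthesis, was at 336, 334 and 333 CPM in control cells and at 274, 289 and 265 CPM with corticosterone. The groups did not overlap, and corticosterone replicate 2 was nearest to the controls. The log2 fold change was -0.28 (SE 0.0511, 95% interval -0.39 to -0.16), and Fads2 fell by 17.4% with an edgeR adjusted p of 0.0291. This call was less firm than that of Fads3. It was lost without any 1 of control replicates 1, 2 or 3 or of corticosterone replicates 1 or 3 (edgeR adjusted p = 0.132, 0.182, 0.140, 0.169 and 0.0973, in that order) and with no filter on low counts (0.0644). It was kept without corticosterone replicate 2 (0.00119), and the log2 fold change stayed between -0.31 and -0.25 in the 6 fits that left out 1 library.

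Fads1, the delta-5 desaturase that acts after Fads2, was at 162, 167 and 168 CPM in control cells and at 143, 156 and 137 CPM with corticosterone. The corticosterone libraries were below the controls without overlap, but the gene did not pass the threshold (log2 fold change -0.19, SE 0.0604, edgeR adjusted p = 0.165; 0.0060 without corticosterone replicate 2). Of the summed FPKM of the 3 desaturases, Fads3 held 15.3 ± 0.342% in control cells and 22.6 ± 0.662% with corticosterone (SD, n = 3). The share of Fads2 was 63.2 ± 0.659% and 56.9 ± 0.151%, while that of Fads1 was 21.4 ± 0.319% and 20.5 ± 0.540%. The ratio of Fads3 to Fads2 in FPKM was 0.242 ± 0.0079 in control cells and 0.398 ± 0.0125 with corticosterone, and the groups did not overlap. This ratio restates the calls of both genes and is given as a description.

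**Figure D3:**
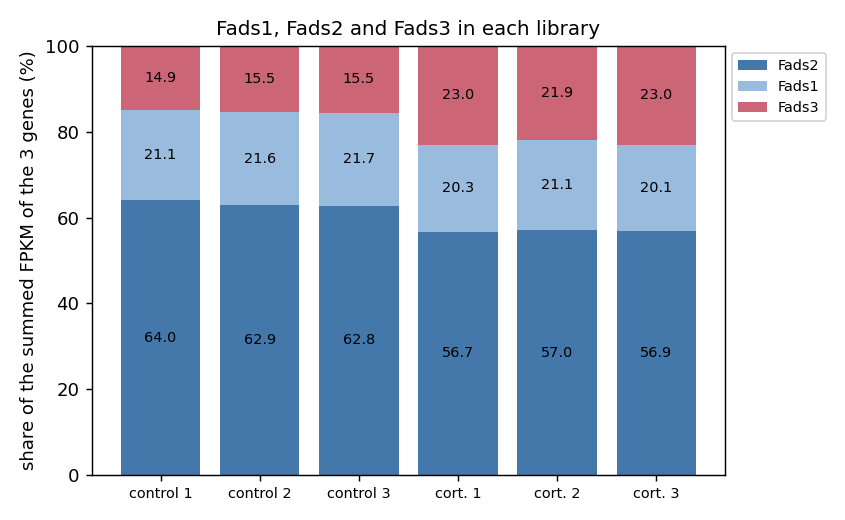
Share of each desaturase gene in the summed FPKM of Fads1, Fads2 and Fads3, 1 bar per library, with the percentage printed in each segment. The Fads3 segment is wider in each of the 3 corticosterone libraries than in each of the 3 control libraries, and the Fads2 segment is narrower.

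The 250 bases before the RefSeq start site of Fads3 and of Fads2 are shown because these neighbours passed the test in opposite directions. By the bounds of the deposited table, the Fads2 window lies almost wholly inside its gene (which ends at 10101746). The Fads3 window lies before its gene (which starts at 10041569), so the 2 windows are not fully alike. Both are read 5′ to 3′ on the strand of the gene, from RefSeq on GRCm38.p6, and capitals mark matches to the CCAAT box (CCAAT on either strand).
Fads3, chr19:10041298-10041547, plus strand: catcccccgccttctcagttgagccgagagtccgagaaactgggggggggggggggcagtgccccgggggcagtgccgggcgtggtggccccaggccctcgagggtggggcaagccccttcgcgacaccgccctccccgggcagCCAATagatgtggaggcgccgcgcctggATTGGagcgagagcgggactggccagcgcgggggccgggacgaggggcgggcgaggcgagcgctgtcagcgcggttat
Fads2, chr19:10101504-10101753, minus strand: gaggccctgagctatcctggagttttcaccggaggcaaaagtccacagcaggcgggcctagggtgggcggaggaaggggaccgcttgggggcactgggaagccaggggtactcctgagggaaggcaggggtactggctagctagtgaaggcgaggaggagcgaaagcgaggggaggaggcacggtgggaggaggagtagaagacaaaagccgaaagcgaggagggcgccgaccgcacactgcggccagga
The Fads3 window held 2 CCAAT matches and the Fads2 window none. Both windows were rich in G and C, at 74.4% for Fads3 and 64.8% for Fads2. Neither held the glucocorticoid response element (AGAACA and TGTTCT with 3 bases between), its single arm TGTTCT, the sterol regulatory element TCACNCCAC, the PPAR response element (AGGTCA repeated with 1 base between) or the E-box CACGTG, searched on both strands, where the single arm also counts inside the full element.

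Of the 40 genes, 34 had a promoter in the RefSeq table, with 39 windows among them, since some genes have several windows. Fabp4, Fabp5, Scd1, Scd2, Fads1 and Decr1 had no entry. A CCAAT match stood in 18 of the 39 windows (46.2%) and in 33.8% of all 32851 RefSeq promoter windows of the same length. The E-box stood in 2 of the 39 windows (Elovl5 and Slc25a1; 6.02% of all windows), the arm TGTTCT in 2 (Acaca and Acsl5; 16.1% of all windows) and the sterol regulatory element in 1 (Acsl1; 1.05% of all windows). The glucocorticoid response element (0.00913% of all windows) and the PPAR response element (0.0335% of all windows) stood in 0 of the 39. A match is a run of letters and not a measured binding site, and the lack of one says only that the letters are not in the window.

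Of the other 6 desaturases and elongases, 0 passed the threshold in edgeR. The 1 with an unadjusted p under 0.05, Elovl6, was lower (8.80% of all tested genes were). It was also called lower by DESeq2 (4.45% of all genes with a DESeq2 adjusted p were). Scd2 was at 1698, 1598 and 1531 CPM in control cells and at 1524, 1323 and 1656 CPM with corticosterone, with overlapping groups. The log2 fold change of Scd2 was -0.10 (SE 0.0828, edgeR adjusted p = 0.593) and that of its paralog Scd1 was -0.07 (SE 0.0754, edgeR adjusted p = 0.708). The coding sequences of Scd1 and Scd2 are 89.8% identical, and over a stretch of 623 bases their transcripts are 95.5% identical, so counting could have moved reads between them. Scd2 made up 92.6 ± 0.0359% of the summed FPKM of Scd1 and Scd2 in control cells and 92.4 ± 0.206% with corticosterone (SD, n = 3).

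Elovl6, which lengthens palmitate to stearate, came next to the threshold. It was at 153, 156 and 156 CPM in control cells and at 127, 124 and 138 CPM with corticosterone, without overlap. The log2 fold change was -0.25 (SE 0.0559, 95% interval -0.38 to -0.13, edgeR adjusted p = 0.0549). Over the alternatives the adjusted p ran from 0.0035 (DESeq2) to 0.252 (edgeR without control replicate 2), and Elovl6 passed with upper quartile scaling (0.0370) and without corticosterone replicate 2 (0.0112) or 3 (0.0463).

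The elongases Elovl1, Elovl5 and Elovl7, which act on saturated very long, polyunsaturated and saturated long chains, lay further from the threshold. Elovl1 was at 64.3, 66.6 and 69.1 CPM in control cells and at 59.6, 71.1 and 53.2 CPM with corticosterone, so corticosterone replicate 2 lay above every control and the groups overlapped. Its log2 fold change was -0.12 (SE 0.101, edgeR adjusted p = 0.595), and it passed the threshold without that library (-0.24, edgeR adjusted p = 0.0257). Elovl7 was at 29.9, 25.3 and 29.9 CPM in control cells and at 32.8, 26.2 and 32.6 CPM with corticosterone, with a log2 fold change of 0.10 (SE 0.111). The corticosterone libraries of Elovl5 lay on both sides of the controls, at 90.3 to 105 CPM against 95 to 95.5 CPM (log2 fold change 0.06, SE 0.0658).

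**Figure D4:**
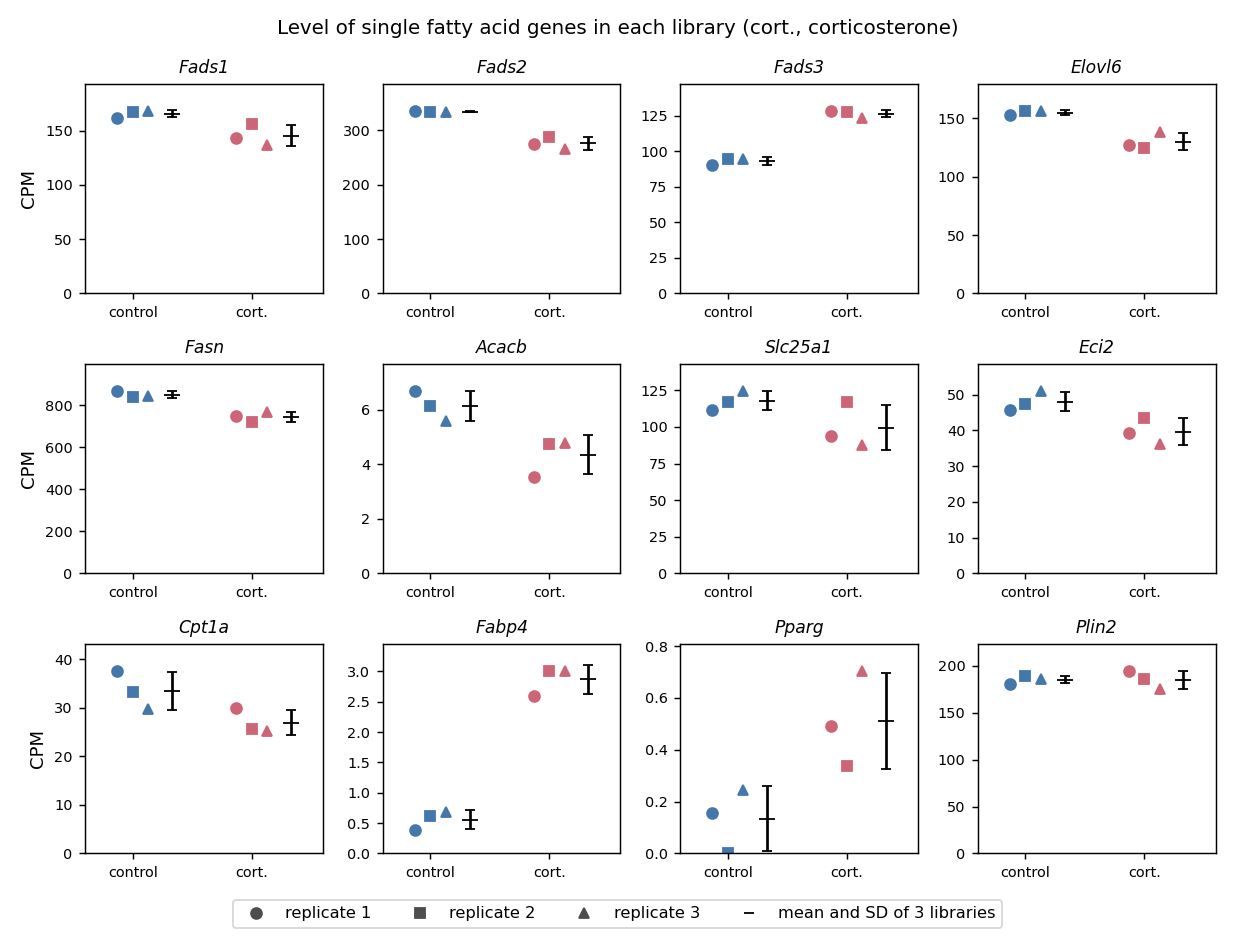
Level of 12 of the genes in each library as CPM (axis from 0), with replicates as separate symbols and the mean and SD of 3 libraries beside them. Fads3 and Fabp4 are higher and Fads2 lower in every corticosterone library, and Slc25a1 shows corticosterone replicate 2 at the level of the controls.

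In the synthesis group, 0 of 7 genes passed the threshold and all 7 log2 fold changes were below 0, with a median of -0.09 (range -0.49 to -0.0027). At an unadjusted p under 0.05 the group held 3 lower genes and 0 higher (8.80% and 8.23% of all tested genes). DESeq2 called 1 lower gene, Fasn (4.45% of all genes with a DESeq2 adjusted p were lower). Fasn, which builds palmitate, was at 869, 840 and 848 CPM in control cells and at 751, 722 and 769 CPM with corticosterone. The groups did not overlap, and the log2 fold change was -0.19 (SE 0.0480, 95% interval -0.30 to -0.08, edgeR adjusted p = 0.0846; 0.0128 to 0.303 with 1 library left out).

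The mitochondrial citrate carrier Slc25a1 was at 112, 117 and 125 CPM in control cells and at 93.8, 117 and 87.7 CPM with corticosterone, where replicate 2 lay within the control range. Its log2 fold change was -0.24 (SE 0.104, edgeR adjusted p = 0.285), against -0.38 without corticosterone replicate 2 (edgeR adjusted p = 0.0032). Acly was at 489, 472 and 452 CPM in control cells and at 482, 421 and 509 CPM with corticosterone. The Acly groups overlapped fully, and the 95% interval of its log2 fold change ran from -0.17 to 0.17. Acss2, which makes acetyl-CoA from acetate, was at 33.3, 32.8 and 28.9 CPM in control cells and at 30.0, 29.1 and 31.0 CPM with corticosterone (log2 fold change -0.08, SE 0.0781).

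The acetyl-CoA carboxylases make malonyl-CoA, Acaca in the cytosol for synthesis and Acacb at the mitochondrial surface, where malonyl-CoA restrains fatty acid entry. Acaca was the more abundant, at 7.14 ± 0.113 FPKM against 0.561 ± 0.0532 FPKM for Acacb in control cells. Acacb was at 6.69, 6.13 and 5.59 CPM in control cells and at 3.55, 4.74 and 4.79 CPM with corticosterone, without overlap. Its log2 fold change of -0.49 (SE 0.152, edgeR adjusted p = 0.148) was the lowest among the 39 genes. With 1 library left out, that adjusted p ran from 0.0432 (without corticosterone replicate 2) to 0.392 (without corticosterone replicate 1). Acaca was at 136 to 139 CPM in control cells and at 129 to 130 CPM with corticosterone, without overlap (log2 fold change -0.09, SE 0.0461). A near copy of Acaca, Gm5182, 99.2% identical over 6118 bases, carried 5620 counts over the 6 libraries against 51870 for Acaca, so the level of Acaca is uncertain by such an amount. Me1, which supplies NADPH for synthesis, was at 63.0 to 65.2 CPM in control cells and at 55.7 to 64.6 CPM with corticosterone, and it has a near copy, Gm7049, with 1100 counts against 24018.

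In the oxidation group, 0 of 12 genes passed the threshold in edgeR. At an unadjusted p under 0.05, 5 were lower and 0 higher (8.80% and 8.23% of all tested genes). DESeq2 called 1 lower gene, Eci2 (4.45% of all genes with a DESeq2 adjusted p were lower). The median log2 fold change was -0.06, with 10 of 12 below 0, and 4 of 12 genes had every corticosterone library below every control (11.6% of all tested genes). Eci2, an isomerase that repositions the cis bond of unsaturated chains, was at 45.7, 47.4 and 51.0 CPM in control cells and at 39.3, 43.6 and 36.1 CPM with corticosterone. The groups did not overlap (log2 fold change -0.28, SE 0.0846, edgeR adjusted p = 0.145; 0.0088 without corticosterone replicate 2). Of the exonic bases of Eci2, 3.41% overlap the gene Gm16984 on the other strand, and strand use in counting is not given.

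Entry into mitochondria is set by Cpt1a, which links long chains to carnitine at the outer membrane. Cpt1a was at 37.6, 33.3 and 29.7 CPM in control cells and at 30.0, 25.7 and 25.2 CPM with corticosterone, so corticosterone replicate 1 lay just above control replicate 3. Its log2 fold change was -0.31 (SE 0.108, edgeR adjusted p = 0.189). The carrier Slc25a20, which moves acylcarnitine across the inner membrane, was at 14.4, 14.2 and 14.3 CPM in control cells and at 12.6, 12.9 and 10.8 CPM with corticosterone, without overlap (log2 fold change -0.24, SE 0.0947, edgeR adjusted p = 0.248). A stretch of 366 bases of Slc25a20 has near copies in many transcripts, which makes its level uncertain. Cpt2, which releases the chain from carnitine inside, was at 20.3 to 22.2 CPM in control cells and at 20.95 to 23.2 CPM with corticosterone (log2 fold change 0.03, SE 0.0778).

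The acyl-CoA dehydrogenases start each round of oxidation. Acadl, for long chains, was the most abundant oxidation gene at 54.4 ± 3.07 FPKM in control cells. It was at 117, 121 and 132 CPM in control cells and at 104, 114 and 105 CPM with corticosterone. The groups did not overlap (log2 fold change -0.20, SE 0.0649, edgeR adjusted p = 0.169; 0.0157 without corticosterone replicate 2). Acadm, for medium chains, was at 74.9, 70.1 and 69.7 CPM in control cells and at 68.2, 70.1 and 71.3 CPM with corticosterone, with overlapping groups and a 95% interval of the log2 fold change of -0.16 to 0.10. Acadvl, for very long chains, was at 41.7 to 50.4 CPM and 42.9 to 47.2 CPM, but 42.9% of its exonic bases overlap Dvl2 on the other strand, so its counts may hold reads of that gene.

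The later steps gave small differences too. The trifunctional protein subunits Hadha and Hadhb, which carry out the last reactions of long-chain oxidation, had log2 fold changes of -0.06 (SE 0.0571) and -0.03 (SE 0.0651). Hadhb has a near copy, Gm13910, 99.8% identical over 1428 bases, with 7834 counts against 22031. Ech1, which shifts the bonds of chains with several cis bonds, was at 42.3, 42.8 and 42.9 CPM in control cells and at 35.9, 40.3 and 34.2 CPM with corticosterone. The Ech1 groups did not overlap (log2 fold change -0.21, SE 0.0761, edgeR adjusted p = 0.208; 0.0101 without corticosterone replicate 2). Decr1, a reductase for polyunsaturated chains, was the least counted oxidation gene at 2.14, 2.24 and 3.09 CPM in control cells and 2.88, 2.71 and 2.48 CPM with corticosterone. The isomerase Eci1 was at 34.9 to 38.9 CPM in control cells and at 30.4 to 40.4 CPM with corticosterone, where replicate 2 was the highest of the 6 libraries.

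In the binding or uptake group, 1 of 11 tested genes rose and 0 fell (1.35% and 1.46% of all tested genes), with a median log2 fold change of -0.03. At an unadjusted p under 0.05, 2 were higher and 0 lower (8.23% and 8.80% of all tested genes). Every corticosterone library lay above every control for 2 genes and below for 0 (10.6% and 11.6% of all tested genes). Fabp4, the fatty acid binding protein best known from adipocytes and macrophages, was counted 24, 40 and 44 times in control replicates 1 to 3 and 163, 196 and 196 times in corticosterone replicates 1 to 3. These counts correspond to 0.378, 0.613 and 0.674 CPM in control cells and 2.59, 3.005 and 2.999 CPM with corticosterone. The lowest corticosterone library was above the highest control library by over 1 CPM, and the 3 corticosterone libraries were close together. Fabp4 rose 5.14-fold (log2 fold change 2.36, SE 0.244, 95% interval 1.80 to 2.92, edgeR adjusted p = 0.0029). The adjusted p ran from 1.1e-14 (DESeq2) to 0.0274 (edgeR without control replicate 2) over the alternatives in which the gene was tested. Its mean stayed under 1 FPKM in both groups, at 0.108 ± 0.0302 FPKM in control cells and 0.563 ± 0.0445 FPKM with corticosterone (SD, n = 3). The annotated exons of Fabp4 together cover its whole span of 4489 bases, whereas its coding sequence has 396 bases. The low FPKM rests partly on that length, and reads from anywhere in the gene can count towards it. Fabp4 lies on chromosome 3, 10204088 to 10208576 on the minus strand, and had no near copy or exon overlap.

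Markers of the other cell types that carry Fabp4 were examined beside this result. Of 8 listed adipocyte markers, 4 had a row, with a summed level of 127 to 129 CPM in control cells and 113 to 122 CPM with corticosterone. Nearly all of that sum came from genes that many cell types use, the receptor Adipor2 (108 ± 0.228 CPM in control cells) and the lipase Lipe (19.6 ± 0.751 CPM in control cells), neither of which passed the threshold. The adipokine genes were at or near 0. Adipoq had 0, 0 and 0 counts in control cells and 4, 7 and 0 with corticosterone, and Retn had 6 counts in control replicate 1 and 0 in the other libraries. The 8 macrophage and leukocyte markers had a summed level of 238 to 257 CPM in control cells and 227 to 309 CPM with corticosterone, and 0 of 8 passed the threshold in edgeR or DESeq2, with 0 at an unadjusted p under 0.05. Most of that sum was Lyz2, at 153 to 172 CPM in control cells and 152 to 229 CPM with corticosterone, whereas Ptprc, the pan-leukocyte antigen, was at 3.32 to 4.69 CPM and 3.27 to 4.88 CPM. Of 8 endothelial markers, 6 had a row, with a summed level of 2.47 to 3.20 CPM in control cells and 1.99 to 2.53 CPM with corticosterone. The endothelial marker Pecam1 was at 1.13, 1.61 and 0.981 CPM in control cells and at 0.573, 0.690 and 0.597 CPM with corticosterone, without overlap. It did not pass in edgeR (log2 fold change -0.999, SE 0.271, edgeR adjusted p = 0.106) but did in DESeq2 and without corticosterone replicate 2 (edgeR adjusted p = 0.0414). Vwf, the other endothelial marker that was tested, had a log2 fold change of 0.15 (SE 0.210) and did not pass. The part of these cell types in the rise of Fabp4 was not tested.

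Fabp5, the binding protein of epithelia, lies within 250 kb of Fabp4 on chromosome 3 (10012548 to 10016607, plus strand), with other listed genes between them. It was far more abundant than Fabp4, at 27.2 ± 1.20 FPKM in control cells. It was at 104, 112 and 114 CPM in control cells and at 93.0, 109 and 89.5 CPM with corticosterone, so the groups overlapped through corticosterone replicate 2. Its log2 fold change was -0.18 (SE 0.0812, edgeR adjusted p = 0.309), against -0.27 without that library (edgeR adjusted p = 0.0080). Near copies make this level uncertain, since Gm6166, 98.3% identical over 409 bases, held 24954 counts against 40145 for Fabp5 (its log2 fold change was -0.14). The ratio of Fabp5 to Fabp4 in FPKM was 353, 232 and 216 in control cells and 45.5, 45.7 and 37.8 with corticosterone. Fabp3, the muscle form, was at 0.787, 1.10 and 0.490 CPM in control cells and at 0.541, 0.828 and 1.10 CPM with corticosterone, a spread too wide to show a difference (95% interval of the log2 fold change -0.82 to 0.93).

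The PPAR receptors bind fatty acids and control genes of their storage and oxidation. Pparg, the form that drives fat cell formation, was counted 10, 0 and 16 times in control cells and 31, 22 and 46 times with corticosterone. All corticosterone libraries were above all controls, but at this depth the log2 fold change of 1.92 had an SE of 0.826, a 95% interval of 0.02 to 3.81 and an edgeR adjusted p of 0.288. Ppard, the broadly expressed form, was the more abundant receptor at 10.5 ± 0.512 FPKM in control cells, and its log2 fold change was 0.09 (SE 0.0687).

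Uptake and activation genes differed by small amounts. Cd36, a surface receptor for fatty acids, was at 24.3 to 25.5 CPM in control cells and at 21.1 to 30.0 CPM with corticosterone, with replicate 3 alone above the controls. Acsl5, the most abundant acyl-CoA synthetase, was at 363, 360 and 367 CPM in control cells and at 331, 363 and 337 CPM with corticosterone. Corticosterone replicate 2 of Acsl5 lay within the controls (log2 fold change -0.08, SE 0.0532, edgeR adjusted p = 0.496; 0.0440 without that library), and 8.31% of its exonic bases overlap Zdhhc6 on the other strand. Acsl4, which prefers arachidonate, had the widest spread of the family, at 137 to 173 CPM in control cells and 109 to 167 CPM with corticosterone, where replicate 2 was the lowest library. Acsl1 and Acsl3 had log2 fold changes of -0.06 (SE 0.0793) and -0.04 (SE 0.0550). Plin2, a coat protein of lipid droplets, was at 181, 189 and 186 CPM in control cells and at 194, 186 and 175 CPM with corticosterone. The Plin2 groups overlapped, and its log2 fold change had a 95% interval of -0.13 to 0.12.

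The libraries of corticosterone-treated cells did not shift alike in each role. The median log2 level of the synthesis genes relative to the control mean was -0.09, -0.16 and -0.10 in corticosterone replicates 1 to 3, below each of the 3 control libraries (-0.02 to 0.03). For oxidation it was -0.11, -0.04 and -0.19, also below each control library (-0.01 to 0.01), with replicate 2 nearest to the controls. For desaturation and elongation it was -0.08, -0.11 and 0.04, so that replicate 3 lay above the controls, and for binding or uptake it was -0.04, -0.0019 and 0.02, which overlapped the controls. The medians over all tested genes stayed between -0.0021 and 0.0058 in the 6 libraries.

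**Figure D5:**
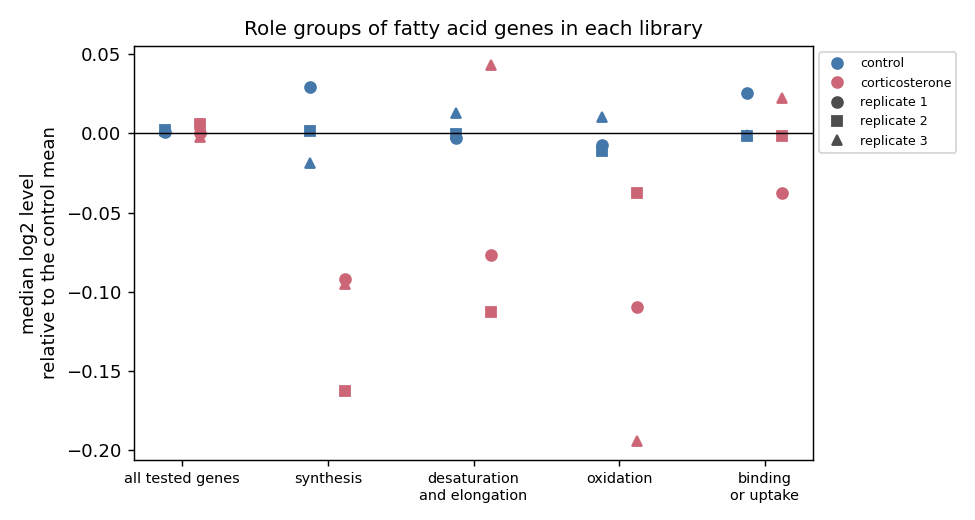
Median log2 level of the genes of each role in each library, relative to the mean of the 3 control libraries, beside the same median over all 17283 tested genes. The 3 corticosterone libraries lie below the 3 control libraries for synthesis and oxidation, on both sides of them for desaturation and elongation, and overlap them for binding or uptake.

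Leaving out corticosterone replicate 2 changed the number of genes that passed more than leaving out any other library did. Of the 39 genes, 17 showed the smallest shift in the direction of their fold change in that library, 17 in replicate 3 and 5 in replicate 1, against 53.8%, 24.5% and 21.6% of all tested genes. Without corticosterone replicate 2, 2 of the 39 genes rose (10.5% of all genes tested in that fit rose) and 12 fell (10.0% of all genes tested in that fit fell). The 12 were Acacb, Fasn and Slc25a1 of synthesis, Fads1, Fads2, Elovl1 and Elovl6 of desaturation and elongation, Acadl, Ech1 and Eci2 of oxidation, and Acsl5 and Fabp5 of binding or uptake. The 2 that rose were again Fads3 and Fabp4. The median of binding or uptake changed sign without that library, from -0.03 to 0.03. The median of oxidation moved away from 0, from -0.06 to -0.14, and that of desaturation and elongation towards 0, from -0.10 to -0.02.

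A wider list of 111 other genes of the pathway was chosen by function, also with earlier results of these data known. It held 105 genes with a row and 89 that were tested. Of these 1 rose (1.35% of all tested genes did) and 2 fell (1.46% of all tested genes did), shares near the background, and their median log2 fold change was -0.05, with 59 of 89 below 0. The list was split by role like the members. The calls in it were less firm than those of Fads3 and Fabp4, since 0 of its genes passed when control replicate 1, 2 or 3 was left out. Without corticosterone replicate 2, 20 passed, of which 5 rose (10.5% of all genes tested in that fit rose) and 15 fell (10.0% of all genes tested in that fit fell).

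Among 22 tested regulators and suppliers of reductant, Insig1 fell. Insig1 encodes the protein of the endoplasmic reticulum that holds back the lipogenic SREBP factors and is itself a target of them. It was at 168, 161 and 156 CPM in control cells and at 128, 122 and 133 CPM with corticosterone, without overlap (log2 fold change -0.35, SE 0.0559, edgeR adjusted p = 0.0177; up to 0.114, without control replicate 2). Next by p was Idh1, a cytosolic source of NADPH, which did not pass (log2 fold change -0.20, SE 0.0522, edgeR adjusted p = 0.0982; 0.0245 without corticosterone replicate 2). DESeq2 called Insig1, Idh1 and Srebf2 lower and Me2 higher in this list (4.45% and 4.21% of all genes with a DESeq2 adjusted p).

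Among 9 tested other enzymes of elongation and desaturation, Hacd4, which removes water in the elongation cycle, fell. Hacd4 was at 6.83, 6.53 and 6.02 CPM in control cells and at 4.07, 3.02 and 3.26 CPM with corticosterone, without overlap (log2 fold change -0.90, SE 0.146, edgeR adjusted p = 0.0174; up to 0.102, without control replicate 2). Tecr, which completes that cycle, did not pass, and its corticosterone replicate 2 (240 CPM) lay at the lowest control library while replicates 1 and 3 were at 185 and 183 CPM (log2 fold change -0.31, edgeR adjusted p = 0.182). Without that library it passed, with a log2 fold change of -0.45 (edgeR adjusted p = 0.00052). DESeq2 called 1 gene of this list, Hacd4, lower (4.45% of all genes with a DESeq2 adjusted p were lower).

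Among 30 tested other oxidation genes, 0 passed in edgeR, and 5 were lower at an unadjusted p under 0.05 (8.80% of all tested genes). DESeq2 called 2 lower, Acox2 and Acaa2 (4.45% of all genes with a DESeq2 adjusted p were lower). Acox2, a peroxisomal oxidase of branched chains, was next to the threshold at 7.89, 9.25 and 8.01 CPM in control cells and 5.57, 6.19 and 4.97 CPM with corticosterone, without overlap (log2 fold change -0.59, SE 0.126, edgeR adjusted p = 0.0504; 0.0085 without corticosterone replicate 2). Acaa2, the mitochondrial thiolase, had a log2 fold change of -0.32 (SE 0.0923, edgeR adjusted p = 0.131; 0.0072 without corticosterone replicate 2).

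Among 28 tested other genes of uptake, activation and lipid droplets, Plin3 rose. Plin3, a coat protein that moves from the cytosol to new droplets, was at 110, 112 and 108 CPM in control cells and at 133, 140 and 132 CPM with corticosterone, without overlap (log2 fold change 0.29, SE 0.0513, edgeR adjusted p = 0.0246; up to 0.145, without control replicate 3). Vldlr, a lipoprotein receptor, was at 8.43 to 9.49 CPM in control cells and at 11.2 to 14.2 CPM with corticosterone and did not pass (log2 fold change 0.43, SE 0.118, edgeR adjusted p = 0.108; 0.0287 without corticosterone replicate 2). DESeq2 called Plin3, Vldlr and Acsbg1 higher and Dbi lower in this list (4.21% and 4.45% of all genes with a DESeq2 adjusted p).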

How the data were processed

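RNA sequencing of 6 libraries was analysed, with groups taken from the treatment label. The members and gene lists were chosen with earlier results of these data known. The authors deposited whole-number counts per gene, not normalized, per the file headers. In the same table the authors deposited FPKM. These were nearly proportional to the count per exon length and library size (all exons of a gene together). The length they imply was 1.13 times that exon length in the median. Not given in the sources used here were the aligner, the counter and the strand setting. The genome build named by the submitters' processing notes is the human GRCh38, whereas the identifiers are mouse, and 28086 of 28154 were found in GENCODE M21 (GRCm38), 90.4% of them with identical coordinates (34 of the 39 members). No value column was left unmapped.

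Counts were scaled by TMM, filtered with filterByExpr (minimum count 10, minimum total 15) and fitted by edgeR 4.0.16 (R 4.3.3, limma 3.58.1), group as the only factor. Calls used a Benjamini-Hochberg adjusted p under 0.05 over 17283 genes. The biological coefficient of variation was 0.135. CPM use the TMM-scaled library sizes. The pipeline was tested on simulated data, drawn without an outlying library such as corticosterone replicate 2. Near copies were sought with BLAST 2.17.0.

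Values in every library are given for members with an unadjusted p under 0.05, those called with a library left out or another scaling, and the 3 most abundant and 2 least counted of each role. Of the other genes of the pathway, each one called and the 2 of lowest p per list are named. Alternatives were other scalings and filters, DESeq2 1.42.0, limma on log2(FPKM + 1) and log2(FPKM + 0.1), a replicate block, leaving out each library, and other thresholds.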

Additional observations from a re-analysis of the deposited data

How the results depend on the processing

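Over all tested genes, 487 passed. The count was 211 with no filter on low counts, 1293 with DESeq2, 144 at an adjusted p under 0.01 and 889 under 0.1, and 88 (without control replicate 2) to 3670 (without corticosterone replicate 2) with 1 library left out. The 2 members that rose (Fads3 and Fabp4) passed in all 6 of those fits (2 to 2), and 1 passed with a mean of at least 5 FPKM and with limma at pseudocounts 1 and 0.1, where Fabp4 fell under the filter. Of members that fell (1, Fads2) there were 2 with upper quartile scaling, 0 with no filter, 4 with DESeq2 (Eci2, Elovl6, Fads2 and Fasn), 0 under 0.01, 3 under 0.1, and 0 to 12 with 1 library left out. At an unadjusted p under 0.05 there were 11 (8.80% of all tested genes were lower at that p). For the other pathway genes (3) the counts were 1, 11, 0 and 5 with no filter, DESeq2, 0.01 and 0.1. With 1 library left out they ran from 0 to 20. Of all genes with a DESeq2 adjusted p, 4.21% were called higher and 4.45% lower. The 20, like the 12 above, came without corticosterone replicate 2, where 10.5% of all genes tested rose and 10.0% fell.

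With 1 library left out, the medians ran from -0.140 to -0.0757 for synthesis, -0.124 to -0.0176 for desaturation and elongation, -0.143 to -0.0599 for oxidation and -0.0711 to 0.0261 for binding or uptake. The log2 fold change of Acly was 0.00079 with median ratio scaling and with DESeq2, 0.0074 with library totals and 0.0063 at 5 FPKM. That of Plin2 was 0.0016, 0.0016, 0.0075 and 0.0064 there, and 0.0033 and 0.0034 with limma. Leaving out 1 library changed the sign of 10 members that were not called: Acly (-0.0596 to 0.0706), Plin2 (-0.0383 to 0.0402), Cpt2 (-0.0174 to 0.0572), Acadm (-0.0538 to 0.0036), Acadvl (-0.114 to 0.0207), Hadhb (-0.0780 to 0.0121), Eci1 (-0.193 to 0.0198), Cd36 (-0.210 to 0.0590), Fabp3 (-0.210 to 0.366) and Acsl4 (-0.201 to 0.0740). The cause was not tested.

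With the replicate block, 237 genes passed in all, 2 members rose, 0 fell (Fads2, edgeR adjusted p = 0.111) and 1 other pathway gene passed. The labels do not say that the numbers pair the libraries, and the deviations of same-numbered libraries were hardly related (Pearson r of 0.011, 0.038 and -0.088 over genes).

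Depth limits Pparg most: at 0 to 46 counts a library, the 95% interval of its log2 fold change ran from 0.02 to 3.81.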

Other observations

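The genes around the members that passed the test were read from the same table. Within 150 kb of Fads2 the table lists 11 genes other than the desaturases, of which 7 were tested, and 0 passed in edgeR. The 1 with an unadjusted p under 0.05, also called by DESeq2, was Fth1, the heavy chain of the iron store ferritin, which lies on the other side of Fads3 from Fads2. It had a mean of 422 FPKM in control cells and 517 FPKM with corticosterone (log2 fold change 0.29, edgeR adjusted p = 0.0771), and it was named after its values were seen. Within 250 kb of Fabp4 the table lists 11 genes other than Fabp4 and Fabp5, of which 6 were tested, with 0 called by edgeR or DESeq2 and 0 at an unadjusted p under 0.05. The nearest with at least 10 counts in the mean of a group was Impa1, an enzyme of inositol synthesis, at 13.5 FPKM in control cells and 13.02 FPKM with corticosterone (log2 fold change -0.06).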
